A study of Homo sapiens with 6 samples.

Results

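BIN1 and 9 genes of the endocytic machinery that it works with were followed across 6 RNA-seq libraries of HG3, an established human lymphoblastoid B cell line. The 10 members included BIN1, its relatives AMPH, BIN2 and BIN3, and the endophilin genes SH3GL1 and SH3GLB1. The rest were the dynamin genes DNM1 and DNM2, the clathrin adaptor gene PICALM and the clathrin heavy chain gene CLTC. All 10 were found by symbol among the 23619 genes measured. BIN1 was selected on measured values, its lower FPKM in all 3 resistant pools, and the other members were chosen by name as genes of the same machinery. The libraries came from 3 fludarabine-resistant HG3 pools, numbered 17, 18 and 28, and from 3 control pools with the same numbers, which the design text calls parental. Each pool and group gave 1 library of total RNA. Fludarabine is a purine nucleoside analogue used against chronic lymphocytic leukaemia, and the study selected for resistance to it after transposon mutagenesis. The labels give neither the dose nor the duration of exposure, and it is not stated whether each pool was kept apart throughout, so the p-values reflect library-to-library spread, which may be technical. Each pool holds many cells, and a lower value cannot be told apart from fewer cells that express the gene.

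BAR domains are curved protein modules that bind to membranes and bend them. In endocytosis, clathrin and its adaptors form a coated pit, BAR proteins such as amphiphysins and endophilins shape the neck of the pit, and dynamin, which many of them recruit through an SH3 domain, cuts the neck. BIN1 is the amphiphysin found outside the nervous system as well as in it; it forms membrane tubules in muscle, and some of its isoforms bind the transcription factor MYC. In B cells the same machinery takes up receptors from the cell surface.

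The level of each gene is given as deposited FPKM, a fragment number divided by transcript length and library size. The libraries had 10936 to 11331 genes at 1 FPKM or more, and relative depth, read from the steps of low values with control 17 as 1, ran from 1 to 1.30. The 10 markers of B cell identity lay at 10.8 FPKM or more in all 6 libraries. The 8 markers of T and NK cells summed to 0.482 to 2.004 FPKM in resistant libraries and 0.869 to 1.65 FPKM in controls. The 8 markers of muscle and neurons, tissues rich in BIN1, summed to 0.607 to 1.66 FPKM in resistant libraries and 0.341 to 0.778 FPKM in controls. The 6 myeloid markers summed to 2.41 to 8.22 FPKM in resistant libraries, with the highest value in resistant 18, and to 2.38 to 3.36 FPKM in controls. The 7 erythroid markers summed to 0 to 0.757 FPKM in resistant libraries, and to 2.18 to 3.999 FPKM in controls, and 3 of the 7 were at 0 in every library. The 7 stromal and epithelial markers summed to 4.23 to 5.97 FPKM in resistant libraries and 5.08 to 11.3 FPKM in controls. The part of other cell types in the results was not tested. Resistant 18 stood apart from the other libraries: limma's array weights gave it 0.162, against 1.03 to 1.93 for the rest. Differences are resistant minus control on log2(FPKM + 1), tested with limma over the 11307 genes with 1 FPKM or more in 3 or more libraries, with Benjamini-Hochberg adjustment over all of them.

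Because BIN1 was selected on this contrast, its values are a description and carry no test. It had 4.79, 4.21 and 4.09 FPKM in resistant 17, 18 and 28, against 31.8, 27.3 and 30.3 FPKM in control 17, 18 and 28. The resistant libraries were all far below the lowest control, and the 3 values within each group lay close together. The mean was 4.36 ± 0.372 FPKM in resistant libraries and 29.8 ± 2.29 FPKM in controls (SD, n = 3 each), 6.83-fold lower. BIN1 stood at the 24.99th to 28.7th percentile of tested genes in the resistant libraries and at the 73.0th to 76.0th in the controls. On the log2 scale its SD within the resistant group was 0.10, smaller than that of all but 10.6% of tested genes, whose median was 0.29. In the controls its SD was 0.11, against a median of 0.18. Of the 11307 tested genes, those with a lower difference than BIN1 numbered 17 within pool 17, 95 within pool 18 and 26 within pool 28.

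The 250 bases before the annotated start of BIN1 are shown beside those of AMPH, the neuronal amphiphysin, so that the promoter of the gene with the lowered transcript can be read beside that of its closest relative. Both are from RefSeq on GRCh38.p14, 5′ to 3′ on the minus strand, with capitals marking GC boxes, which were searched as GGGCGG on both strands (CCGCCC on the other), and overlapping matches were counted. The positions are chr2:127107155-127107404 for BIN1 and chr7:38631374-38631623 for AMPH. The expression files were made on hg19, so these coordinates do not apply to that build.
BIN1: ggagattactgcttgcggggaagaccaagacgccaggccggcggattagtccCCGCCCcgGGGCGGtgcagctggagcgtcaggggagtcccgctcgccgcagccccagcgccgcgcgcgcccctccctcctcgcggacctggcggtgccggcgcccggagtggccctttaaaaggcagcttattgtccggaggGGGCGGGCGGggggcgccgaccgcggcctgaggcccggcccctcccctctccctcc
AMPH: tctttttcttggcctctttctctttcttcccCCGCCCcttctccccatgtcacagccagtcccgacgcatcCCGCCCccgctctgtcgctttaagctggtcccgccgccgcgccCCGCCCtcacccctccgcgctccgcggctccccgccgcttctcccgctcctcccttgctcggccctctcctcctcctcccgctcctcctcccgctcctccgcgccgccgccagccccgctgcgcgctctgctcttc

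The BIN1 window held 4 GC boxes, beginning 198, 190, 56 and 52 bases before the start, the last pair overlapping. The AMPH window held 3, beginning 219, 179 and 136 bases before the start. At least 1 GC box occurred in 42.3% of 27305 RefSeq windows of the same length. The E box bound by MYC and its relatives, searched as CACGTG, occurred in 6.49% of the windows and was not among the letters of either window shown. CCAAT, also searched on both strands, occurred in 33.0% and likewise was in neither. Both windows were rich in CpG, with 30 CpG in BIN1 and 28 in AMPH, against a median of 11 over all windows. Neither trait was particular to this pair. GC boxes were also found in the windows of SH3GLB1 (2) and of DNM1, DNM2, PICALM and CLTC (1 each), with 0 in SH3GL1. CpG numbered 33 in SH3GL1, 28 in SH3GLB1, 27 in DNM1, 22 in CLTC, 19 in DNM2 and 2 in PICALM. Among the other members with an entry in the table, the SH3GL1 window held an E box, beginning 113 bases before the start, the DNM2 window held 3 CCAAT matches, and the PICALM window held 1, beginning 240 bases before the start. Matches are letters in a window and carry no evidence of binding.

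Of the other 7 tested members, 0 passed the adjusted threshold of 0.05, against 0.0354% of all tested genes (4 genes, 0.0177% higher and 0.0177% lower). That background counts BIN1 itself, which was selected on this contrast and from which nothing is read. The other 3 genes were HBE1, lower in resistant libraries, and MIR744 and RNU6-28, which were listed at 0 in all controls and reached the tested set through the resistant libraries alone. At an unadjusted p under 0.05 there was 1 of the 7, BIN3, against 13.1% of all tested genes (5.99% higher and 7.14% lower). AMPH and DNM1 did not reach the minimum level and were not tested. The values of 2 of the 7 did not overlap between groups, BIN3 higher (background 10.1% of tested genes) and DNM2 lower (background 11.1%). The groups of BIN1 did not overlap either, from which nothing is read, since it was selected on the same contrast. The median difference of the 7 was 0.08, against 0.01 over all tested genes.

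**Figure D1:**
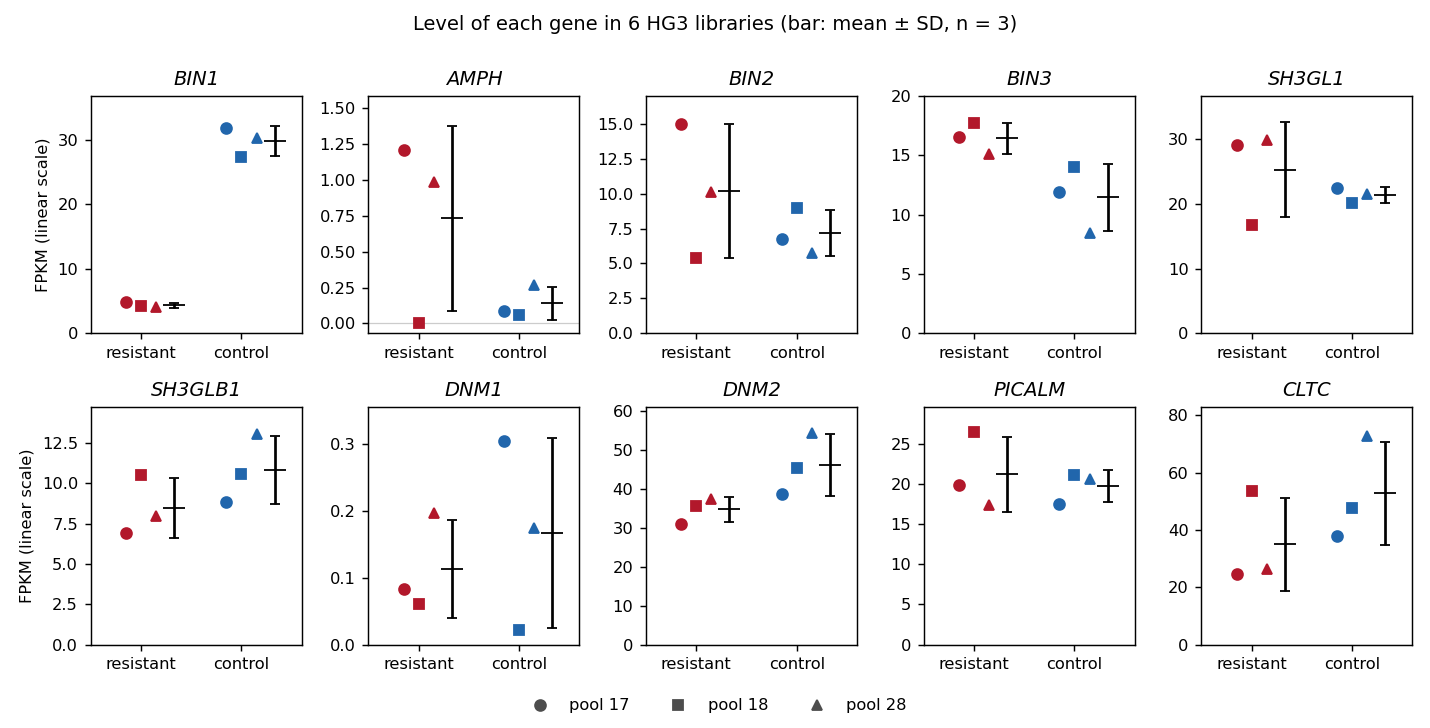
FPKM of the 10 genes (linear axes, each with its own scale) in resistant libraries (red) and control libraries (blue), with a marker shape for each pool and the mean ± SD (n = 3) in black. BIN1 lies between 4.09 and 4.79 FPKM in resistant libraries and between 27.3 and 31.8 FPKM in controls, and of the other genes BIN3 and DNM2 have groups that do not overlap.

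Neither BIN2 nor BIN3 passed the test, and AMPH was too low for one. BIN3 encodes a small, widely made BAR protein without an SH3 domain. It had 16.6, 17.7 and 15.1 FPKM in resistant 17, 18 and 28, against 11.95, 14.0 and 8.45 FPKM in control 17, 18 and 28. All 3 resistant values were above the highest control, and the difference was positive in all 3 pools (0.44, 0.32 and 0.77). Over the pools it was 0.51 (SE 0.20, 95% interval 0.03 to 0.99) and missed the threshold (limma adjusted p = 0.359). Without control 28 it was 0.32 (adjusted p = 0.858).

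BIN2 encodes a BAR protein of leukocytes, which also lacks an SH3 domain. It had 15.0, 5.38 and 10.1 FPKM in resistant 17, 18 and 28, against 6.72, 8.99 and 5.77 FPKM in control 17, 18 and 28. Resistant 17 and 28 were above all controls and resistant 18 was below them. Pool by pool it differed by 1.05 (17), -0.65 (18) and 0.71 (28). Over the pools the difference was 0.37 (SE 0.34, 95% interval -0.43 to 1.17, limma adjusted p = 0.680). It moved with single libraries, to 0.73 without resistant 18 (adjusted p = 0.152), 0.06 without resistant 17 (0.9501) and 0.25 without control 28 (0.961).

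AMPH encodes the amphiphysin of nerve terminals. It was low throughout, with 1.21, 0 and 0.984 FPKM in resistant 17, 18 and 28, against 0.0846, 0.0616 and 0.271 FPKM in control 17, 18 and 28. Resistant 17 and 28 were above every control, and AMPH was listed at 0 in resistant 18. It reached 1 FPKM in resistant 17 alone and was not tested.

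Summed over BIN1, BIN2, BIN3 and AMPH, the libraries held 37.6, 27.3 and 30.3 FPKM in resistant 17, 18 and 28, against 50.6, 50.4 and 44.8 FPKM in control 17, 18 and 28. BIN1 made up 12.8%, 15.4% and 13.5% of that sum in the resistant libraries, against 62.9%, 54.2% and 67.6% in the controls. BIN3 was the most abundant of the 4 in each resistant library, with 44.1% to 64.9% of the sum, against 18.9% to 27.8% in the controls. Without BIN1, the other 3 genes summed to 32.8, 23.1 and 26.2 FPKM in resistant 17, 18 and 28, and to 18.8, 23.0 and 14.5 FPKM in control 17, 18 and 28. The sums of these 3 were higher in resistant 17 and 28 than in any control, while those of pool 18 were nearly equal. These shares follow in part from the choice of BIN1 and were not tested.

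**Figure D2:**
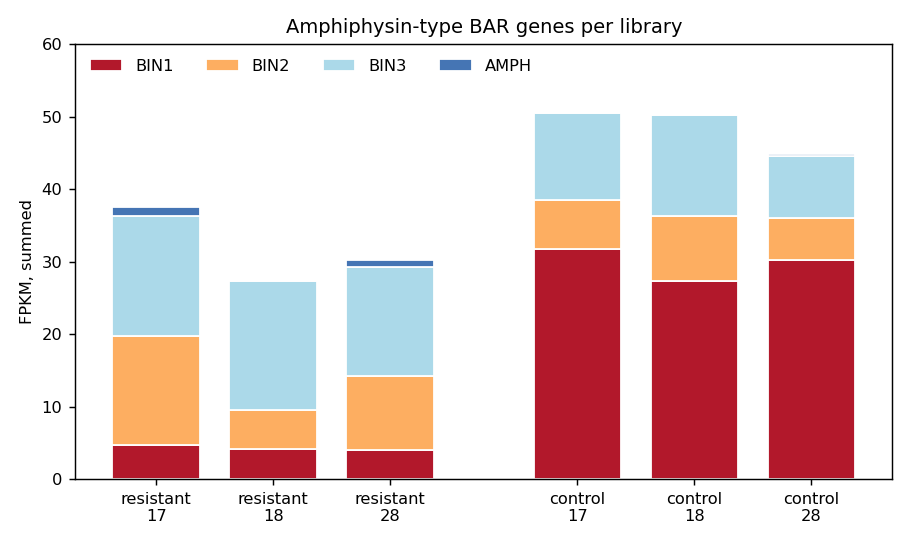
Stacked FPKM of BIN1, BIN2, BIN3 and AMPH in each library, resistant libraries on the left. BIN1 is the tallest part of every control bar, with 54.2% to 67.6% of the sum, and BIN3 is the tallest part of every resistant bar.

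Endophilins are BAR proteins with an SH3 domain that bring dynamin and the lipid phosphatase synaptojanin to budding membrane. SH3GL1 encodes endophilin A2, the widely made A-type endophilin. It had 29.2, 16.8 and 29.9 FPKM in resistant 17, 18 and 28, against 22.5, 20.1 and 21.6 FPKM in control 17, 18 and 28. Resistant 17 and 28 were above the controls and resistant 18 below them, the same split as for BIN2. The difference was 0.19 (SE 0.24, 95% interval -0.37 to 0.75, limma adjusted p = 0.776). It moved to 0.45 without resistant 18 (adjusted p = 0.125), 0.07 without resistant 17 (0.939) and 0.05 without resistant 28 (0.946).

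SH3GLB1 encodes endophilin B1, also called Bif-1, which acts at mitochondria and in autophagy and binds the apoptosis protein BAX. It had 6.90, 10.5 and 7.98 FPKM in resistant 17, 18 and 28, against 8.86, 10.5 and 13.1 FPKM in control 17, 18 and 28. The groups overlapped, and the difference was -0.32, -0.01 and -0.65 in pools 17, 18 and 28. Over the pools it was -0.33 (SE 0.21, 95% interval -0.82 to 0.17, limma adjusted p = 0.542). It moved to -0.20 without resistant 17 (adjusted p = 0.756) and -0.19 without control 28 (0.939).

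Dynamins are the GTPases that cut the neck of the pit. DNM2, the dynamin made in most tissues, had 31.0, 35.7 and 37.4 FPKM in resistant 17, 18 and 28, against 38.5, 45.3 and 54.3 FPKM in control 17, 18 and 28. All 3 resistant values were below the lowest control, by a small margin between resistant 28 and control 17. The difference was -0.30, -0.34 and -0.53 in pools 17, 18 and 28, and -0.39 over them (SE 0.18, 95% interval -0.82 to 0.04). It missed the threshold (limma adjusted p = 0.420).

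DNM1, the dynamin of neurons, had 0.0830, 0.0598 and 0.197 FPKM in resistant 17, 18 and 28, against 0.305, 0.0211 and 0.174 FPKM in control 17, 18 and 28. Multiplied by relative depth, these values were 4, 3, 12, 14, 1 and 10 times a common smallest step in the same order of libraries, to within 0.2 of a step. The values thus stand 1 to 14 steps above 0. RefSeq lists 31 pseudogenes numbered after DNM1, of which 3 are among the genes measured. It also lists 3 for SH3GL1, of which 2 were measured, and 2 for BIN2, of which 0 were. How fragments shared with these pseudogenes were assigned is not given in the sources used here.

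PICALM encodes an adaptor that links clathrin to the lipids of the plasma membrane and sets the size of the coat. It had 19.9, 26.5 and 17.4 FPKM in resistant 17, 18 and 28, against 17.5, 21.1 and 20.7 FPKM in control 17, 18 and 28. The groups overlapped, and the difference was 0.08 (SE 0.20, 95% interval -0.38 to 0.54, limma adjusted p = 0.890). It turned to -0.079 without resistant 18 (adjusted p = 0.757), and was 0.21 without resistant 28 (0.690), 0.0021 without control 17 (0.998) and 0.13 without control 18 (0.909).

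CLTC, the clathrin heavy chain gene, had 24.7, 53.7 and 26.4 FPKM in resistant 17, 18 and 28, against 37.8, 47.8 and 72.75 FPKM in control 17, 18 and 28. Resistant 17 and 28 were below all controls, while resistant 18 lay among them. Pool by pool it differed by -0.59 (17), 0.16 (18) and -1.43 (28). Over the pools the difference was -0.62 (SE 0.36, 95% interval -1.46 to 0.22, limma adjusted p = 0.497). It moved to -0.97 without resistant 18 (adjusted p = 0.127) and -0.37 without control 28 (0.926).

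**Figure D3:**
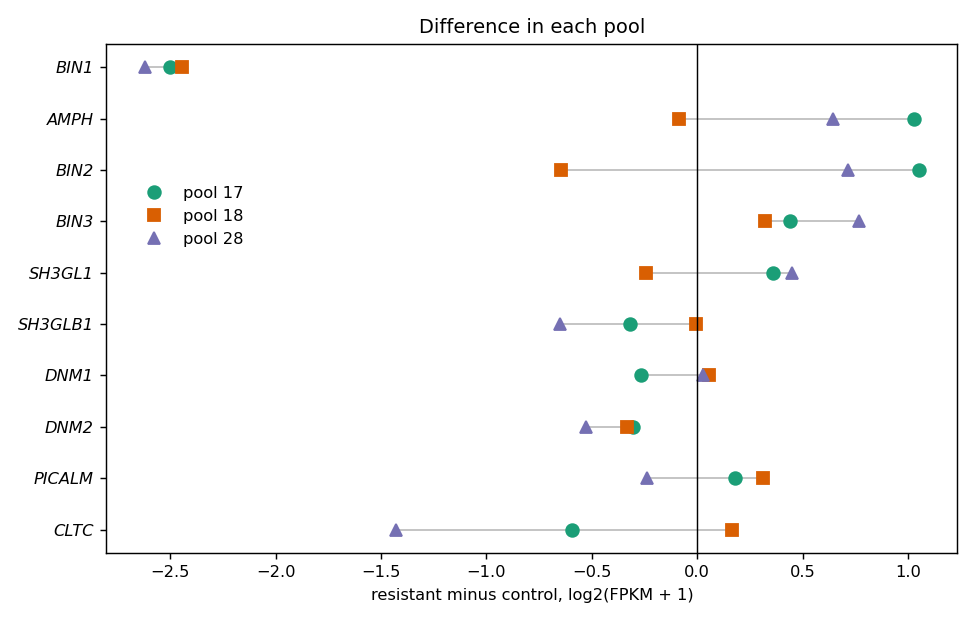
Difference in log2(FPKM + 1), resistant minus control, for the 10 genes in pools 17, 18 and 28, with a grey line from the lowest to the highest pool. BIN1 lies between -2.62 and -2.44 in the 3 pools, whereas BIN2 runs from -0.65 in pool 18 to 1.05 in pool 17.

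The order of levels among the members changed with BIN1. In the resistant libraries the mean FPKM ran from CLTC (34.9) and DNM2 (34.7) through SH3GL1 (25.3), PICALM (21.3), BIN3 (16.5), BIN2 (10.2) and SH3GLB1 (8.46) to BIN1 (4.36), AMPH (0.731) and DNM1 (0.113). In the controls it ran from CLTC (52.8) and DNM2 (46.0) through BIN1 (29.8), SH3GL1 (21.4), PICALM (19.8), BIN3 (11.5), SH3GLB1 (10.8) and BIN2 (7.16) to DNM1 (0.167) and AMPH (0.139). BIN1 was eighth in the resistant libraries, below the lowest value of SH3GLB1, and the third in the controls, above the highest value of SH3GL1. The ranges of these neighbours overlapped in both groups: CLTC with DNM2, SH3GL1 with PICALM, SH3GLB1 with BIN2, and AMPH with DNM1. PICALM also overlapped with BIN3 in the resistant libraries, and BIN3 with SH3GLB1 in the controls. Apart from BIN1, the orders differed only in that BIN2 and SH3GLB1, and AMPH and DNM1, changed places.

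The genes beside BIN1 on chromosome 2 had a median difference near 0 in each pool. In RefSeq order the nearest tested genes were GYPC, the gene of glycophorin C of red cells, and ERCC3, a helicase gene of transcription and nucleotide excision repair. GYPC had 217.5, 63.2 and 172 FPKM in resistant 17, 18 and 28, against 158, 164 and 124 FPKM in control 17, 18 and 28, so that it was higher in pools 17 and 28 and lower in pool 18. ERCC3 had 27.5, 25.1 and 27.1 FPKM in resistant 17, 18 and 28, against 27.2, 22.9 and 25.4 FPKM in control 17, 18 and 28, with overlapping groups. Over the 10 tested genes on each side, the median difference was -0.03, 0.12 and -0.04 in pools 17, 18 and 28, where BIN1 had -2.50, -2.44 and -2.62. Of these 20 genes 0 passed the adjusted threshold (background 0.0354%). The lowest difference over the pools was -0.93 for RNU4ATAC, a small nuclear RNA gene whose FPKM may be inflated by its short length, which was not tested. Of the 20, 4 had groups apart downward (background 11.1%) and 1 upward (background 10.1%).

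**Figure D4:**
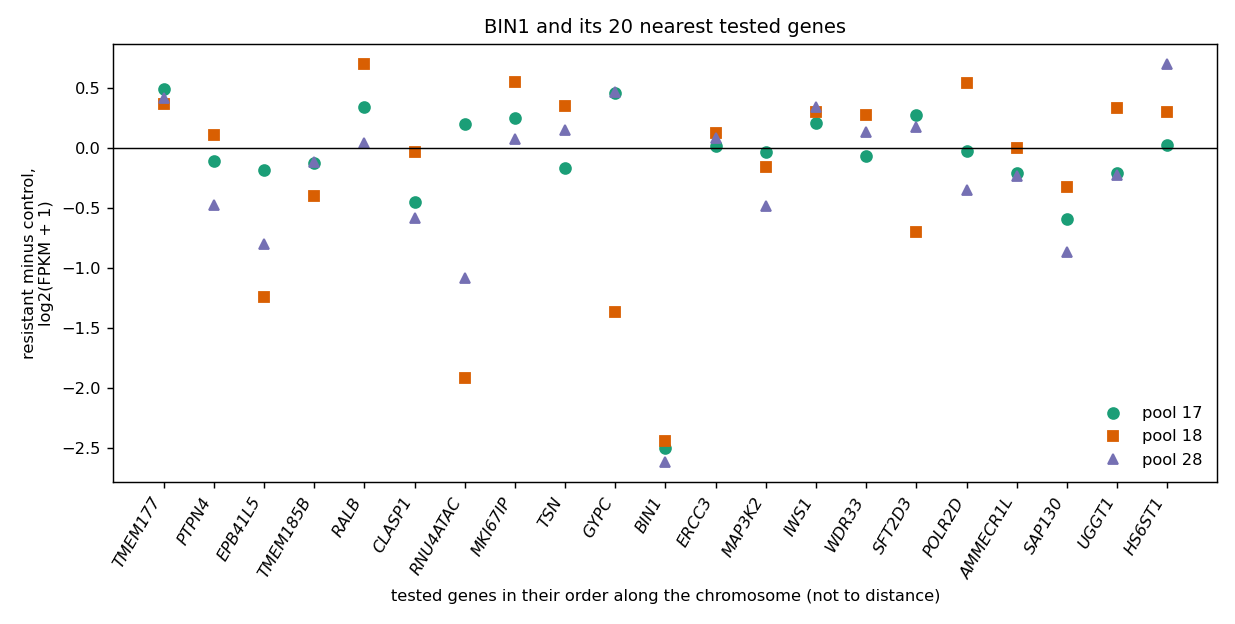
Difference in log2(FPKM + 1), resistant minus control, for BIN1 and the 10 tested genes on each side in their RefSeq order, with a marker for each pool (pools 17 and 28 coincide at GYPC). BIN1 is at -2.62 to -2.44 in all 3 pools, while the median of its neighbours lies between -0.04 and 0.12 in each.

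The other 7 tested members were set beside their neighbours in the same way. The 20 neighbours of BIN3 on chromosome 8 had a median of 0.01, -0.26 and -0.0013 in pools 17, 18 and 28, and BIN3 itself had a positive difference in each. The 20 neighbours of BIN2 had a median of 0.04, -0.32 and 0.11, with the same signs as BIN2 (1.05, -0.65 and 0.71) but smaller. The 20 neighbours of CLTC on chromosome 17 had a median of -0.07, 0.44 and 0.0047, and CLTC was below that median in each pool. The neighbours of DNM2 had a median of -0.01, -0.12 and 0.19, and DNM2 was below that median in each pool. The neighbours of SH3GLB1 had a median of -0.01, 0.13 and -0.03, and SH3GLB1 was likewise below that median in each pool (-0.32, -0.01 and -0.65). The neighbours of SH3GL1 had a median of 0.06, 0.05 and 0.37, where SH3GL1 had 0.36, -0.24 and 0.45, so that it was above the median in pools 17 and 28 and below it in pool 18. The neighbours of PICALM had a median of 0.10, 0.34 and 0.12, where PICALM had 0.18, 0.31 and -0.24, above the median in pool 17 and below it in pools 18 and 28.

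The wider BAR family split nearly evenly in direction. Of its 66 genes, 42 were tested, BIN1 included, and 0 of the other 41 passed the adjusted threshold (background 0.0354%). Positive differences were seen for 22 of the 41 and negative ones for 19, with a median of 0.08 against 0.01 over all tested genes. Apart upward between groups were 9 of the 41 (21.95%, background 10.1%) and apart downward 6 (14.6%, background 11.1%). The family as a whole was not tested. The 24 untested BAR genes were below an FPKM of 1 in at least 4 libraries. ARHGAP17, which encodes a BAR protein that turns off the small GTPases CDC42 and RAC1, had 8.89, 6.95 and 10.2 FPKM in resistant 17, 18 and 28, against 19.3, 18.6 and 29.3 FPKM in control 17, 18 and 28. All resistant values were below all controls, and the difference of -1.26 (SE 0.23) missed the threshold (limma adjusted p = 0.158) except with array weights (0.0352). With array weights 301 of all 11307 tested genes passed. FCHSD2, an F-BAR protein that promotes actin growth at coated pits, had 6.37, 7.10 and 7.01 FPKM in resistant 17, 18 and 28, against 10.3, 14.7 and 17.1 FPKM in control 17, 18 and 28. Its groups were apart, with a difference of -0.92 (limma adjusted p = 0.182, and 0.0363 with array weights). SH3GLB2, the second endophilin B gene, was apart in the other direction, with 44.4, 41.1 and 35.5 FPKM in resistant 17, 18 and 28, against 20.6, 29.7 and 21.6 FPKM in control 17, 18 and 28 (difference 0.74, adjusted p = 0.213).

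**Figure D5:**
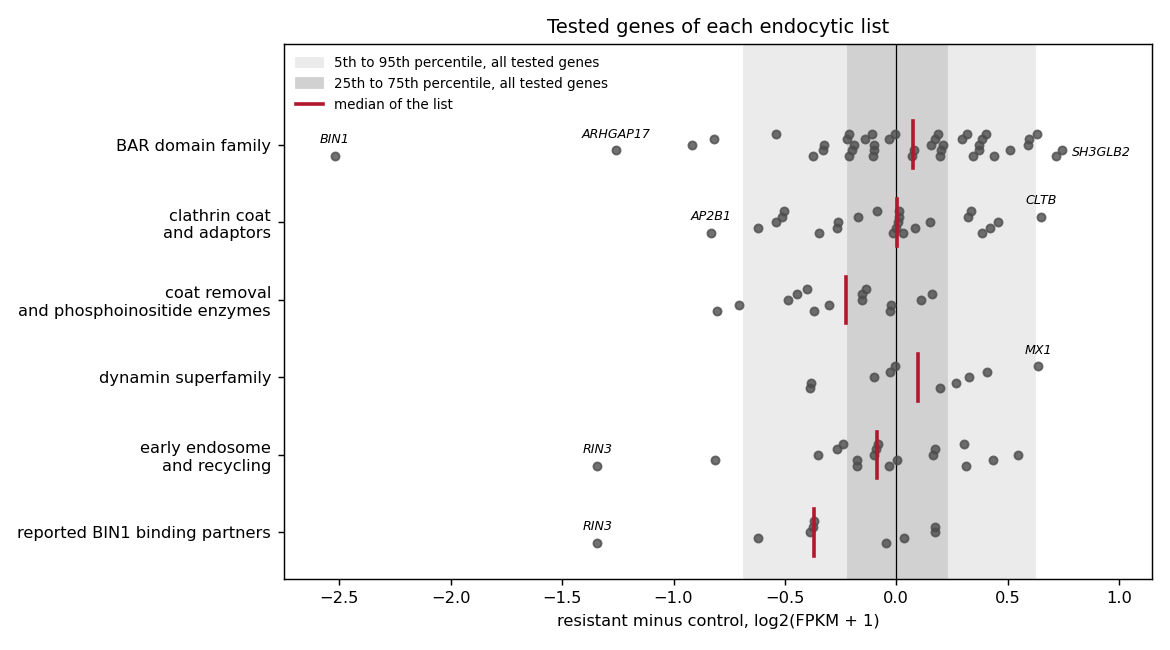
Difference in log2(FPKM + 1), resistant minus control, for the tested genes of 6 endocytic lists (points, spread vertically for legibility), with the median of each list in red. The grey bands span the 5th to 95th percentile (-0.68 to 0.62) and the 25th to 75th (-0.22 to 0.23) of all tested genes. BIN1, at -2.52 and far to the left of the rest of its family, was selected on this contrast, so nothing is read from its place.

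Among 32 genes of the clathrin coat and its adaptors, 24 were tested and 0 passed (background 0.0354%). There were 12 positive and 12 negative differences, with a median of 0.00, against 0.01 over all tested genes. CLTB and CLTA encode the clathrin light chains, which sit on the heavy chain. CLTB had 122, 73.9 and 115 FPKM in resistant 17, 18 and 28, against 77.8, 65.6 and 51.6 FPKM in control 17, 18 and 28 (difference 0.65, adjusted p = 0.352), with resistant 18 below control 17. CLTA, chosen after its values were seen, had 150, 176 and 136 FPKM in resistant 17, 18 and 28, against 132, 129 and 80.6 FPKM in control 17, 18 and 28 (0.46, adjusted p = 0.467), with all resistant values above all controls. The ratio of CLTC to the sum of both light chains was 0.0911, 0.215 and 0.105 in resistant 17, 18 and 28, against 0.180, 0.245 and 0.550 in control 17, 18 and 28, so that it was lower in the resistant library of each pool but the groups overlapped. AP2B1, the beta subunit of the adaptor complex AP-2 that joins cargo to clathrin, had 12.3, 23.2 and 16.4 FPKM in resistant 17, 18 and 28, against 23.7, 31.0 and 39.1 FPKM in control 17, 18 and 28. Resistant values were below all controls, by a narrow margin, with a difference of -0.83 (SE 0.28, adjusted p = 0.287, and 0.0439 with array weights, where 301 of 11307 genes passed). HIP1, an adaptor that ties clathrin to actin, was also apart downward (difference -0.51, adjusted p = 0.344).

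Of 16 genes for coat removal and phosphoinositide turnover, 14 were tested and 0 passed (background 0.0354%). There were 12 negative differences and 2 positive ones, with a median of -0.23, against 0.01 over all tested genes. The list as a whole was not tested. PIP5K1C, a kinase gene for the lipid PIP2 that recruits adaptors, had 2.06, 1.27 and 2.12 FPKM in resistant 17, 18 and 28, against 3.73, 3.45 and 4.497 FPKM in control 17, 18 and 28. Its groups were apart, with a difference of -0.81 (SE 0.19, limma adjusted p = 0.197). AAK1, the kinase that phosphorylates AP-2, lay at 0.552 to 0.662 FPKM in resistant libraries and 1.22 to 2.25 FPKM in controls, with a difference of -0.71. It reached the tested set through the controls alone, so nothing is read from its test, and without it the list had 11 negative differences and 2 positive ones and a median of -0.15. INPP5D, the gene of the lipid phosphatase SHIP1 of blood cells, lay at 29.4 to 33.5 FPKM in resistant libraries and 41.3 to 50.1 FPKM in controls (-0.48, adjusted p = 0.285). SYNJ1, a synaptojanin gene, lay at 0.499 to 0.704 FPKM in resistant libraries and 0.604 to 1.103 FPKM in controls, too low to test. SYNJ2, a second synaptojanin gene, was higher, at 2.235 to 3.417 FPKM in resistant libraries and 2.436 to 3.401 FPKM in controls. Its difference was -0.025 (limma adjusted p = 0.972).

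In the dynamin superfamily, 10 of 12 genes were tested and 0 passed (background 0.0354%). There were 5 differences in each direction, with a median of 0.10, against 0.01 over all tested genes. MX1, an interferon-induced antiviral dynamin relative, had 303, 329 and 350 FPKM in resistant 17, 18 and 28, against 213, 225 and 193 FPKM in control 17, 18 and 28, with groups apart (difference 0.64, SE 0.18, limma adjusted p = 0.224). MFN1, a mitochondrial fusion gene of the superfamily, differed by 0.33 (adjusted p = 0.481), with overlapping groups.

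Of 21 genes of early endosomes and recycling, 18 were tested and 0 passed (background 0.0354%). Their median was -0.09, against 0.01 over all tested genes. RIN3 encodes an activator of the early endosome GTPase RAB5 that also binds BIN1. It had 1.54, 0.280 and 1.54 FPKM in resistant 17, 18 and 28, against 2.95, 4.43 and 5.27 FPKM in control 17, 18 and 28. The groups were apart, and the difference of -1.34 (SE 0.32) missed the threshold (limma adjusted p = 0.197) except with array weights (0.0413, where 301 of 11307 genes passed). RAB11B, a recycling GTPase gene, lay at 1.43 to 3.24 FPKM in resistant libraries and 4.41 to 5.96 FPKM in controls (-0.82, adjusted p = 0.248). RABGEF1, another RAB5 activator gene, was apart upward (0.43, adjusted p = 0.401).

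Among 12 reported binding partners of BIN1, 9 were tested and 0 passed (background 0.0354%). There were 6 negative differences and 3 positive ones, with a median of -0.37, against 0.01 over all tested genes. RIN3, DNM2 and ABL1 were apart downward, which is 33.3% of the 9 against a background of 11.1%. SNX4 was apart upward, which is 11.1% of the 9 against a background of 10.1%. The list as a whole was not tested, and RIN3 and DNM2 also belong to lists given above. ABL1, a tyrosine kinase gene, lay at 8.66 to 9.38 FPKM in resistant libraries and 10.4 to 13.6 FPKM in controls (-0.37, SE 0.16, limma adjusted p = 0.376). MYC, chosen after its values were seen, had 107, 108 and 75.1 FPKM in resistant 17, 18 and 28, against 82.2, 105 and 70.8 FPKM in control 17, 18 and 28. It was slightly higher in the resistant library of each pool, but the groups overlapped and the difference of 0.17 (SE 0.23) did not pass (adjusted p = 0.790).

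Transcript length moved with the differences over the pools and in pools 17 and 28. Among 9919 tested genes matched to GENCODE v29, the quartile with the longest transcripts (5103 bases or more) had a median difference of -0.10, against 0.06 in the quartile with the shortest (2131 bases or less). Pool by pool, the longest quartile had -0.14, 0.04 and -0.24 in pools 17, 18 and 28, and the shortest had 0.05, -0.05 and 0.17, so that the order was reversed in pool 18. Length was looked up for the tested members and a part of the other named genes. Genes such as ABL1, MFN1, RABGEF1, SNX4 and MYC were not looked up. Of those looked up, AAK1 (11345 bases), CLTC (8587), HIP1 (8013), SH3GLB1 (6456), AP2B1 (5702) and INPP5D (5274) were in the longest quartile, all with negative differences. BIN3 (1835), CLTA (1235) and CLTB (1215), with positive differences, and RAB11B (1751), with a negative one, were in the shortest. BIN1, with 2693 bases, was in the second quartile, whose median was 0.07, as were BIN2 (difference 0.37), SH3GL1 (0.19) and SH3GLB2 (0.74). The third quartile, with a median of 0.02, held larger falls than the longest: RIN3 (-1.34), ARHGAP17 (-1.26), FCHSD2 (-0.92) and PIP5K1C (-0.81). It also held the AP-2 gene AP2A1 (-0.54), DNM2 (-0.39), PICALM (0.08), the BAR gene SNX8 (0.63) and MX1 (0.64). The part of length in the differences of these genes was not tested.

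Genes with a profile most like that of BIN1 were sought by Pearson r over the 6 libraries among 1934 tested genes with a log2 SD of at least 0.5. The 6 highest were HBE1 (r = 0.99), GATAD2B (0.98), OR51B5 (0.98), ALDH2 (0.98), USP14 (0.98) and SON (0.97), all lower in all 3 pools; ALDH2 was below 1 FPKM in every resistant library and reached the tested set through the controls alone. The 3 lowest were RNU6-28 (-0.998), MIR744 (-0.99) and MBD2 (-0.98), all higher in all 3 pools. A total of 87 genes had an r over 0.9 and 41 an r below -0.9. BIN1 separates the groups, so r over these 6 libraries is a description of genes that separate them too. Among the members the r with BIN1 was 0.75 for DNM2, 0.57 for SH3GLB1, 0.56 for CLTC, -0.23 for PICALM, -0.32 for SH3GL1, -0.39 for BIN2 and -0.79 for BIN3.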

How the data were processed

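The values deposited by the authors are FPKM, per the file headers, 1 library to a file. The reads had been handled on hg19 with DESeq2, HTSeq 0.6.1, Cufflinks 2.2.1 and TopHat2 2.0.4, per the submitters' processing notes; which step used which tool is not given in the sources used here, nor is the annotation. The files hold no counts, so no count model was fitted. Log2(FPKM + 1) was fitted with limma 3.58.1 in R 4.3.3 (lmFit, eBayes with trend, two-sided, no block). The fit was also run on simulated data whose spread came from the controls alone. The resistant libraries varied more (median log2 SD 0.29, against 0.18), so that run cannot show how the fit performs at their spread. The pseudocount of 1 understates changes of low genes. Levels are means ± SD over 3 libraries. Relative depth came from ratios of values under 0.1 FPKM, of which 73.5% to 78.5% were ratios of small whole numbers within 0.02 (log2). Absolute depth was not estimated.

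Members and lists were chosen with earlier results of these data known. Named genes were all members, per list the genes that passed and otherwise the 3 with the smallest p, the nearest tested neighbours of BIN1, and the 6 most and 3 least like BIN1; others were chosen after their values were seen. Neighbour order came from RefSeq (GRCh38.p14), where 97.9% of tested genes were placed, and transcript lengths from GENCODE v29, where 87.7% were matched. Promoter sequences were matched by symbol, and protein sequences were not used here. Alternatives were pseudocounts of 0.1 and 5, no filter, quantile and median-of-ratios scaling, array weights, a block for the pool number, and leaving out each library or pool with the same genes tested.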

Additional observations from a re-analysis of the deposited data

How the results depend on the processing

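A total of 4 genes passed the adjusted threshold over all 11307; with array weights 301 did (125 higher and 176 lower), and with single libraries or pools left out 3 to 18 did, with 8 without resistant 17, 13 without resistant 18 and 18 without pool 18. Array weights lower the part of resistant 18. Among the 7 tested members other than BIN1, 0 passed in any of the 16 alternatives. BIN1 differed by -2.74 with a pseudocount of 0.1 and -1.89 with 5, and stayed between -2.74 and -1.89 throughout. Its selection for a fall in all 3 pools favours a steady direction, so nothing is read from this. PICALM changed sign with array weights (-0.067), without resistant 18 (-0.079) and without pool 18 (-0.031), and ran from -0.079 to 0.245 with a library or pool left out; the cause was not tested. The other 6 tested members kept their direction in all 16. Their sizes depended on single pools: BIN2 was 0.03 without pool 17, 0.88 without pool 18 and 0.20 without pool 28, CLTC -1.01 without pool 18 and -0.21 without pool 28, SH3GL1 0.10, 0.40 and 0.06 without pools 17, 18 and 28, and SH3GLB1 -0.16 without pool 28. Of the other named genes, CLTB was 0.41 without pool 28, and without resistant 18 MFN1 was 0.20 and RABGEF1 0.26. Deviations from the group mean had r = 0.15, 0.09 and -0.02 between libraries of the same number in pools 17, 18 and 28. Between libraries of unlike numbers r ran from -0.21 to 0.17, so this check cannot decide whether the pools were paired. The design text speaks of pairs, but the main fit used none, and differences within a pool join libraries by number alone. With a replicate block 3 genes passed, and 0 of the 7 members. Absolute depth is unknown, and AMPH and DNM1 were too low for a test.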
